A study of Mus musculus with 8 samples.

Results

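The genes described here encode the SR proteins, the hnRNP proteins and the subunits of SF3a and SF3b, which act in the splicing of pre-mRNA. They were taken as every gene of the expression table whose symbol starts with *Srsf* and a digit, with *Hnrnp*, or with *Sf3a* or *Sf3b* and a digit. This rule gave 40 of the 15039 genes, namely 11 SR genes, 20 hnRNP genes and 9 SF3 genes. It used no measured value, but was set with earlier results of these data known. RNA came from the prefrontal cortex (PFC) of wild-type C57BL/6NCrljOri male mice injected at 6 weeks of age on both sides with an AAV2/1 vector. The vector carried the human synapsin promoter (hsyn), which is active in neurons. It expressed mouse Rnf146 together with eGFP in the source of 4 libraries and eGFP without Rnf146 in that of 4 control libraries, and the tissue was dissected 4 weeks later. The study describes the Rnf146 mice used for sequencing as ones in which overexpression and a social deficit had been seen. Rnf146 is a ubiquitin ligase that acts in the Wnt/β-catenin pathway, and the comparison asked which genes change in the PFC when its level is raised.

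Splicing removes introns from pre-mRNA in the spliceosome, a machine of small nuclear RNAs and proteins. SR proteins carry an RNA-binding domain and a tail rich in arginine and serine, bind exonic enhancers and mostly promote the inclusion of exons. hnRNP proteins coat nascent RNA and often act in the opposite direction, by blocking splice sites or looping exons out, and several of them also govern mRNA export, stability and translation. SF3a and SF3b are parts of the U2 snRNP, which recognizes the branch point of the intron. Many SR and hnRNP genes restrain their own level by splicing in an exon that brings a premature stop codon and sends the mRNA to nonsense-mediated decay. In neurons these proteins set the isoforms of channels, receptors and adhesion molecules.

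The deposited values are on a log2 scale and had been centred by the authors within each pair, an eGFP and an Rnf146 library with the same replicate number. Each gene therefore holds its mean and 4 differences, the value of an Rnf146 library minus that of the eGFP library of the same number, and all differences here are of this kind. As a check of the labels, *Rnf146* was at 10.35 to 10.50 in the eGFP libraries and at 13.01 to 13.17 in the Rnf146 libraries, a difference of 2.64 ± 0.13 (SD, n = 4 pairs). Over all genes, limma with the pair as a block called 188 (threshold on the adjusted p, 0.1), which is 1.25% of the 15039 tested, 0.818% higher and 0.432% lower. The dissected tissue did not hold the same mix of markers in both groups. These marker lists were chosen with earlier results of these data known. All 7 septal markers in the table were called higher, with a median difference of 0.53, and the list mean was 9.18 to 9.41 in eGFP and 9.72 to 9.95 in Rnf146 libraries. Of 9 markers of cortical excitatory neurons, 2 were called lower and 0 higher, with a list mean of 11.58 to 11.65 in eGFP and 11.40 to 11.48 in Rnf146 libraries. The 10 oligodendrocyte markers and the 10 striatal markers had median differences of 0.45 and 0.54 with 0 genes called, and both medians were below 0 in pair 1. All 10 means were above 0 in each of these 2 lists. An unadjusted p under 0.05 (limma with the block) was found for 10 oligodendrocyte and 9 striatal markers, beside 12.4% of all genes. The medians were -0.15 for 10 microglial, -0.024 for 10 astrocytic, -0.00090 for 8 endothelial and 0.15 for 3 ependymal markers. Of these, the microglial *C1qb* was called lower, at -0.26 ± 0.055, and all 10 microglial means were below 0. The astrocytic *Agt* and the ependymal *Foxj1* were called higher, at 0.30 ± 0.042 and 0.32 ± 0.10 (SD, n = 4 pairs), and 0 endothelial markers were called. Of the 10 astrocytic means, 4 were above 0 and 6 below, and all 3 ependymal means were above 0. The part of these markers in the values of the splicing genes was not tested. In bulk tissue, fewer cells of a type and less RNA per cell cannot be told apart.

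None of the 40 splicing genes was called, against 1.25% of all genes. The mean differences ran from -0.11 for *Hnrnpf*, which binds runs of guanine, to 0.11 for *Hnrnpd*, which encodes the AU-rich element binding protein AUF1. In 38 of the 40 genes the mean difference was at most 0.1 in size, which held for 79.4% of all genes. The smallest adjusted p of a member was 0.401 and the largest 0.991 (limma with the pair as a block). *Hnrnpd* was the 1 member with an unadjusted p under 0.05, and 12.4% of all genes had such a p. A missing call does not show that a gene stayed the same, so the 95% intervals from limma are given. They reached no further from 0 than 0.27 (the lower bound of *Hnrnpf*), they lay wholly within 0.2 of 0 in 37 of the 40 genes and within 0.15 in 20. Without the pair as a block, 6 members were called, *Hnrnpd*, *Hnrnpk*, *Hnrnpul1*, *Sf3b1* and *Srsf1* higher and *Srsf9* lower. That is 15.0% of the members beside 21.5% of all genes in the same fit, which counts the centred values as 8 independent libraries. The same 6 had an unadjusted p under 0.05 there, as did 30.0% of all genes.

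**Figure D1:**
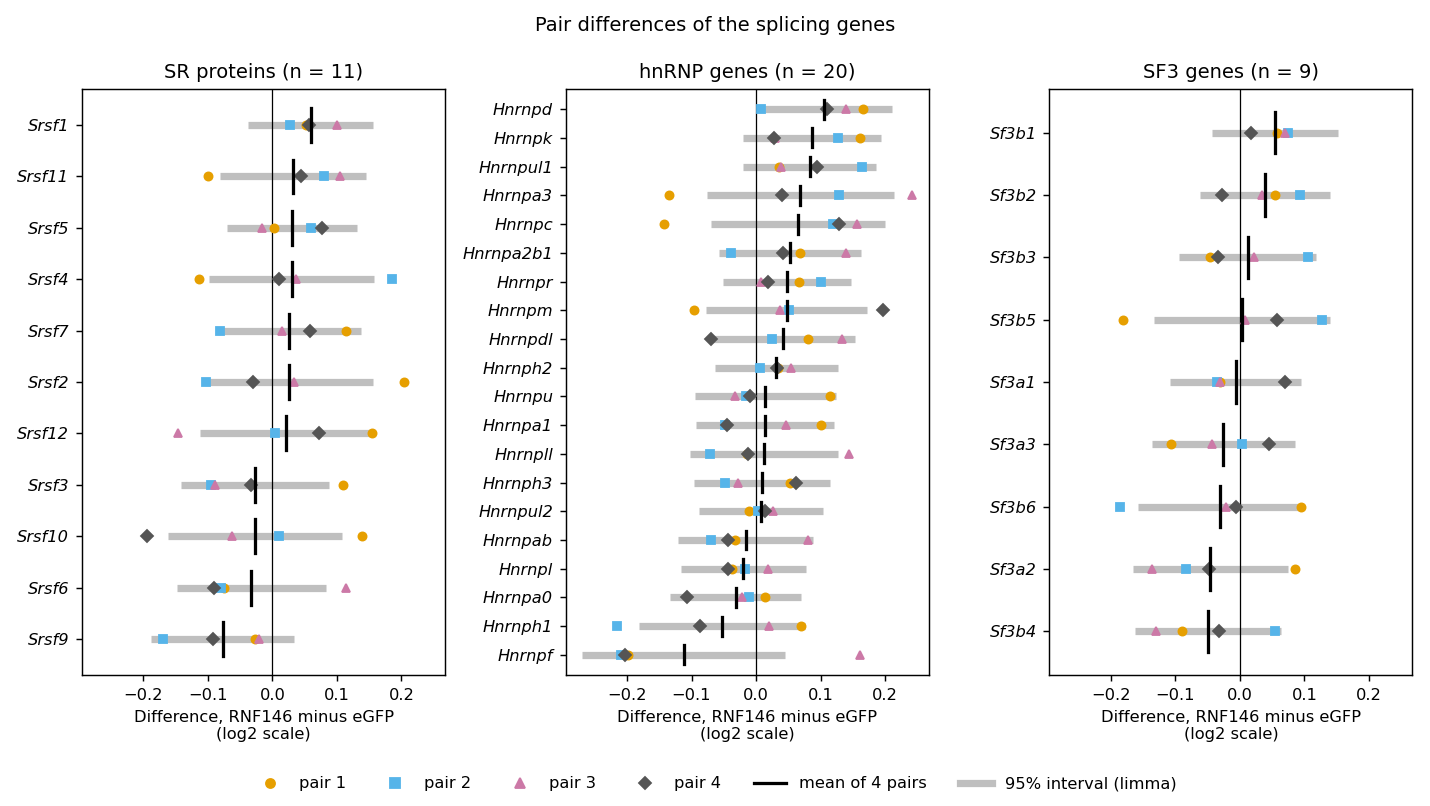
Differences between Rnf146 and eGFP libraries (log2 scale, horizontal axis) of the 11 SR, 20 hnRNP and 9 SF3 genes, 1 gene a row. The 4 symbols are the 4 pairs, the black bar is their mean and the grey band is the 95% interval from limma. The means lie between -0.11 and 0.11, and in 8 of 40 genes all 4 symbols are on one side of 0.

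The differences of the members were small beside those of all genes. The median absolute difference was 0.031 for the members and 0.049 for all genes. The median SD of the 4 pairs was 0.095 for the SR genes, 0.068 for the hnRNP genes, 0.069 for the SF3 genes and 0.098 for all genes. The members were well expressed, 39 of them above the median level of all genes and 31 in the highest quartile by level. Within that quartile the median absolute difference was 0.032 for the 31 members and 0.055 for all 3760 genes, and the median SD of the 4 pairs was 0.069 for the members and 0.098 for all. Of the 31 members in that quartile 1 had an unadjusted p under 0.05, and 15.0% of all genes there had one. These are descriptions of lists of different size and carry no test.

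**Figure D2:**
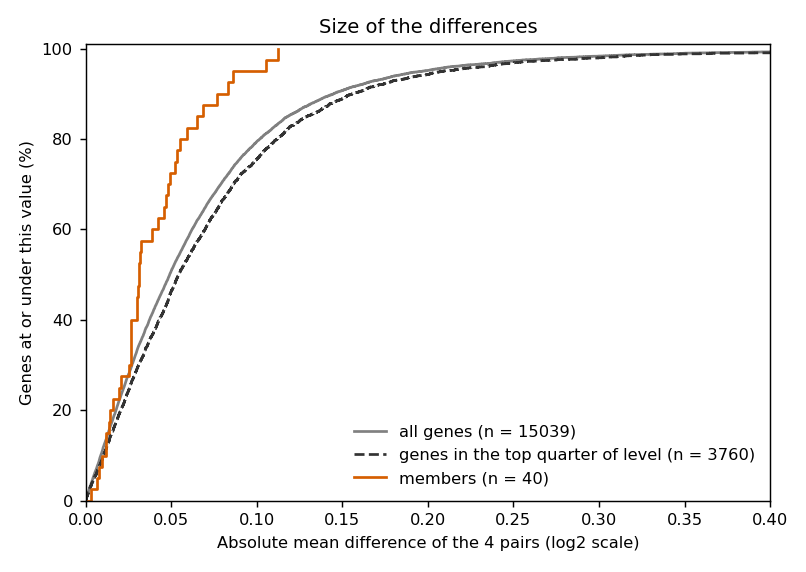
Percent of genes (vertical axis) whose mean difference of the 4 pairs is at or under the absolute value on the horizontal axis (log2 scale). The line of the 40 members (orange) reaches 100% at 0.11, and that of all 15039 genes (grey) is at 79.4% at 0.1. The dashed line is the highest quartile of genes by level.

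All 4 differences had the same sign in 8 of the 40 genes (20.0%), and in 20.6% of all genes. In all 4 pairs, 7 of the 40 genes were higher and 1 of the 40 was lower in Rnf146-overexpressing mice, against 10.4% and 10.2% of all genes. The higher ones were *Hnrnpd*, *Hnrnpk*, *Hnrnpul1*, *Hnrnpr*, *Hnrnph2*, *Srsf1* and *Sf3b1*, and the lower one was *Srsf9*. In centred values, a single sign in all 4 pairs means that the 2 groups of 4 libraries do not overlap. Counting by the mean, 26 members were above 0 and 14 below, and 50.5% of all genes were above 0. The median over the members was 0.014, with pair medians of 0.034, 0.0035, 0.028 and 0.012 (SD 0.014), and the median over all genes was 0.00086.

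The promoters of 4 of these 8 genes are shown, those of the 2 hnRNP genes with the smallest p and of the paralogs *Srsf1* and *Srsf9*, whose differences had opposite signs. Each is the 250 bases before the transcription start from RefSeq on GRCm38.p6, written 5′ to 3′ on the strand of the gene, with GC boxes (GGGCGG) and CCAAT boxes of either strand in capitals. They lie at chr5:99978939-99979188 (*Hnrnpd*, minus strand), chr13:58402118-58402367 (*Hnrnpk*, minus), chr11:88047123-88047372 (*Srsf1*, plus) and chr5:115326927-115327176 (*Srsf9*, plus).
*Hnrnpd*: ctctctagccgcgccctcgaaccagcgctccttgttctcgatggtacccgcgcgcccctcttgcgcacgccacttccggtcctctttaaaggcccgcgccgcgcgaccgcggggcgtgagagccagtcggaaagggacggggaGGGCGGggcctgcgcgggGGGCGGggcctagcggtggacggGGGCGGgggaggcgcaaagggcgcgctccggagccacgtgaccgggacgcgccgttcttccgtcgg
*Hnrnpk*: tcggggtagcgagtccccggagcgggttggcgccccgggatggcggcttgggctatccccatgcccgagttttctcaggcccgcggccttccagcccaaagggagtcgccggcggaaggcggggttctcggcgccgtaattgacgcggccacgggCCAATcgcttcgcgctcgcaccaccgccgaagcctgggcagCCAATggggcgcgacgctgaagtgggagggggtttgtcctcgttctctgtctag
*Srsf1*: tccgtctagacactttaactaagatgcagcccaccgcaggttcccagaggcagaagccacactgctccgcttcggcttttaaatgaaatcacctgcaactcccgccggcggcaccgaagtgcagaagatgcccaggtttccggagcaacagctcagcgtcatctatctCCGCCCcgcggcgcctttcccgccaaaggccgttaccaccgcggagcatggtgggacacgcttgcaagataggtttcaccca
*Srsf9*: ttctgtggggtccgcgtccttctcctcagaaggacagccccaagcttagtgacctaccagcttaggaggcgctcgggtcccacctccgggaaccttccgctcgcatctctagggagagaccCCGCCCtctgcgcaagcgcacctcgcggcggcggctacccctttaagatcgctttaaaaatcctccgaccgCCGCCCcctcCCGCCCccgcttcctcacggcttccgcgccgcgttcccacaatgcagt
GC boxes numbered 3 in *Hnrnpd* and *Srsf9*, 1 in *Srsf1* and 0 in *Hnrnpk*, which had 2 CCAAT boxes instead.

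Promoter windows were found for 36 of the 40 members, 49 windows in all, and for 11133 genes of the table with 14368 windows. The members missing from the promoter table are *Hnrnpll*, *Hnrnpul2*, *Sf3b4* and *Sf3b5*. The ratio of observed to expected CpG was above 0.6 in 48 of the 49 member windows (98.0%) and in 62.0% of all windows, and the median ratio was 0.933 against 0.7. A GC box was present in 75.5% of member windows and in 55.8% of all, and a CCAAT box in 46.9% and 35% of these windows. The ETS core CCGGAAG, searched on both strands, stood in 16 of 49 member windows (32.7%), among them those of *Sf3a1*, *Sf3a2* and *Sf3a3*, and in 12.1% of all windows. The TCF/LEF letters CTTTGAT or CTTTGAA, the core bound by the partners of β-catenin, were in 0 of the 49 member windows and in 5.12% of all 14368. Windows of the same gene can overlap, a match is no proof of a binding site, and no match says only that these letters are not in this window.

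The 11 SR genes had mean differences from -0.077 to 0.059, 7 above and 4 below 0, with 0 called. *Srsf1* (chromosome 11 of GRCm39, 87938129 to 87944581) encodes the founding SR protein, which acts in both constitutive and alternative splicing. Its values were 12.29, 12.30, 12.27 and 12.29 in the eGFP libraries and 12.34, 12.33, 12.37 and 12.35 in the Rnf146 libraries. The groups did not overlap, but the gap was small, the pairs giving 0.052, 0.028, 0.10 and 0.057. The average was 0.059 ± 0.030 (SD, n = 4 pairs), with a 95% interval from -0.038 to 0.16 (limma, adjusted p = 0.626 with the block and 0.0755 without it). *Srsf9* (chromosome 5, 115465189 to 115476335) encodes a close relative of SRSF1 with a short arginine and serine tail. It was at 10.22, 10.29, 10.22 and 10.25 in eGFP and at 10.20, 10.12, 10.20 and 10.16 in Rnf146 libraries. All 4 differences were below 0, at -0.026, -0.17, -0.021 and -0.091, with a mean of -0.077 ± 0.069 and an interval from -0.19 to 0.033 (limma, adjusted p = 0.562 with the block and 0.0937 without it). Because the signs were opposite in all 4 pairs, the difference of *Srsf1* necessarily exceeded that of *Srsf9* in each. The gap averaged 0.14 ± 0.049 (SD, n = 4 pairs).

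The other SR genes changed sign between pairs. *Srsf11*, whose protein stimulates the inclusion of small exons in neurons, had differences of -0.10, 0.079, 0.10 and 0.044. *Srsf5* had 0.0024, 0.060, -0.016 and 0.077, with the third highest mean of the family at 0.031. *Srsf10*, whose protein turns into a splicing repressor when it is dephosphorylated, had 0.14, 0.011, -0.062 and -0.19, which spans 0 in both directions. *Srsf6* had -0.075, -0.080, 0.11 and -0.090, with pair 3 against the other 3 pairs. Their adjusted p-values from limma with the block lay between 0.835 for *Srsf5* and 0.901 for *Srsf10*. *Srsf2*, which encodes SC35, the classic marker of nuclear speckles, was highest in pair 1 (0.20, above every other member there) and lowest in pair 2 (-0.10), and its mean was 0.026 ± 0.13. *Srsf3* and *Srsf7*, which encode small SR proteins that also link splicing to mRNA export, had means of -0.026 and 0.026. *Srsf4* had a mean of 0.030 and *Srsf12* of 0.021.

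By the mean, 15 of the 20 hnRNP genes (75%) were above 0, beside 50.5% of all genes, with a median of 0.023 and 0 called. In the 4 pairs, 12, 10, 17 and 11 of the 20 were above 0. Their pair medians were 0.034, -0.0046, 0.043 and 0.016, so pair 2 did not share the direction. *Hnrnpd* (chromosome 5, 100103794 to 100127029) was at 11.987, 12.066, 12.001 and 12.016 in eGFP and at 12.153, 12.074, 12.140 and 12.125 in Rnf146 libraries. Its difference was 0.17, 0.0083, 0.14 and 0.11, near 0 in pair 2 and similar in the others. The mean of 0.11 ± 0.069 (SD, n = 4 pairs) had a 95% interval from 0.00012 to 0.21, and an unadjusted p of 0.0498 (limma, adjusted p = 0.401 when blocked and 0.0335 otherwise). *Hnrnpk* (chromosome 13, 58536691 to 58551339) encodes a protein that binds runs of cytosine through KH domains. Its values were 13.04, 13.06, 13.10 and 13.11 in eGFP and 13.20, 13.18, 13.13 and 13.13 in Rnf146 libraries. The difference was larger in pairs 1 and 2, at 0.16 and 0.13, than in pairs 3 and 4, at 0.030 and 0.028, with a mean of 0.086 ± 0.068 (limma, adjusted p = 0.496 with the block and 0.0624 without it). *Hnrnpul1* (chromosome 7, 25420577 to 25454388), a relative of *Hnrnpu* with a role in the DNA damage response, was at 11.52, 11.46, 11.52 and 11.49 in eGFP and at 11.56, 11.62, 11.56 and 11.59 in Rnf146 libraries. Its groups did not overlap, and its differences of 0.035, 0.16, 0.039 and 0.095 averaged 0.083 ± 0.060 with an interval from -0.020 to 0.19.

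At the lower end, *Hnrnpf* (chromosome 6, 117877257 to 117905485) was at 11.23, 11.23, 11.05 and 11.23 in eGFP and at 11.03, 11.02, 11.21 and 11.03 in Rnf146 libraries. It was lower by about the same amount in pairs 1, 2 and 4, at -0.20, -0.21 and -0.20, and higher in pair 3, at 0.16. The mean was -0.11 ± 0.18 with an interval from -0.27 to 0.045, and without pair 3 it was -0.20 (limma, adjusted p = 0.549 with all pairs and 0.172 without pair 3). Its relatives in the H/F subfamily did not share this pattern. *Hnrnph1* had 0.069, -0.22, 0.020 and -0.087, *Hnrnph2* had 0.033, 0.0059, 0.054 and 0.032, and *Hnrnph3* had a mean of 0.0098. *Hnrnpa0*, the intronless member of the A/B subfamily, had 0.014, -0.011, -0.022 and -0.11, a mean of -0.031 ± 0.053. *Hnrnpr*, whose protein binds mRNA transported in axons, had 0.067, 0.10, 0.0071 and 0.018, all above 0 and averaging 0.048 ± 0.044. The other hnRNP genes had means between -0.020 for *Hnrnpl* and 0.069 for *Hnrnpa3*. Among them, *Hnrnpa1*, *Hnrnpa2b1* and *Hnrnpc*, which encode the abundant core proteins of hnRNP particles, had means of 0.014, 0.053 and 0.065. *Hnrnpu*, which encodes a nuclear scaffold protein, had a mean of 0.014. The smallest spread between pairs was that of *Hnrnpul2*, with differences from -0.011 to 0.026 and an SD of 0.016.

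The 9 SF3 genes were centred on 0, with 4 means above it, 5 below, a median of -0.0065 and 0 called. *Sf3b1* (chromosome 1, 55024318 to 55066673), which encodes the large subunit that clamps the branch point and is often mutated in myeloid cancers, was at 13.10, 13.10, 13.10 and 13.13 in eGFP and at 13.16, 13.17, 13.17 and 13.14 in Rnf146 libraries. It was higher in each Rnf146 library than in each eGFP library. The pairs gave 0.058, 0.075, 0.070 and 0.017, or 0.055 ± 0.027 on average (SD, n = 4 pairs), and the interval ran from -0.043 to 0.15 (limma, adjusted p = 0.660 with the block and 0.0908 without it). Its partners changed sign between pairs, *Sf3b2* with 0.055, 0.093, 0.035 and -0.028 (mean 0.039) and *Sf3b3* with -0.046, 0.11, 0.022 and -0.034 (mean 0.012). *Sf3b4*, which carries RNA-binding domains, had -0.089, 0.054, -0.13 and -0.032. *Sf3b6*, whose protein touches the branch point adenosine, had 0.094, -0.19, -0.022 and -0.0064. The 3 SF3a genes had means of -0.0065 for *Sf3a1*, -0.046 for *Sf3a2* and -0.026 for *Sf3a3*, all below 0 but each smaller than its spread between pairs. The differences of *Sf3a2* were 0.085, -0.084, -0.14 and -0.048. *Sf3b5*, a small subunit, had the mean nearest to 0 of all members, 0.0033, although its pairs ran from -0.18 to 0.13. Of 18 pairs of subunits within SF3a or SF3b, 2 had the same order in all 4 pairs of libraries. These were *Sf3b1* and *Sf3b2*, each above *Sf3b4*. This count was not tested, and no share over other pairs of genes was counted beside it.

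**Figure D3:**
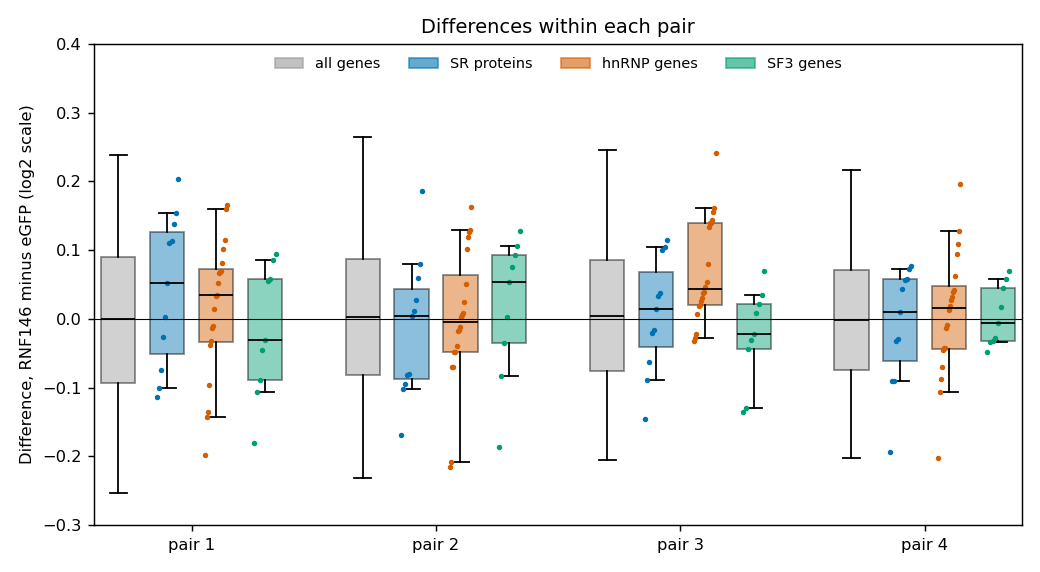
Differences between Rnf146 and eGFP libraries within each of the 4 pairs (log2 scale, vertical axis) for all genes (grey) and for the SR, hnRNP and SF3 genes. Boxes show the quartiles and the median, whiskers the 5th and 95th percentiles and dots the single members. In pair 3 the hnRNP median is 0.043 and the SF3 median -0.022, and in pair 2 they are -0.0046 and 0.054.

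The order of the families differed between pairs, which was not tested. The SR median was highest in pair 1 (0.052) and lowest in pair 2 (0.0039), the pair in which the hnRNP median was lowest too (-0.0046). The SF3 median was lowest in pair 1 (-0.031) and highest in pair 2 (0.054). The number of members above 0 was 23, 22, 27 and 21 of 40 in the 4 pairs. Beyond 0.2 in size there were 1, 2, 1 and 1 members, against 16.4%, 15.5%, 12.9% and 11% of all genes. Paralogs were compared too. In 4 of 25 pairs of paralogs one gene was above the other in all 4 pairs of libraries, namely *Srsf1* over *Srsf9*, *Srsf7* over *Srsf3*, *Hnrnpd* over *Hnrnpab* and *Hnrnpul1* over *Hnrnpul2*. The average gaps were 0.14 for the first, 0.053 for *Srsf7* over *Srsf3*, 0.12 for *Hnrnpd* over *Hnrnpab* and 0.075 for *Hnrnpul1* over *Hnrnpul2*. These orders are descriptions of 4 pairs of libraries and were not tested. How often 2 unrelated genes keep 1 order in all 4 was not counted. The 4 of 25 therefore has no baseline and is not evidence of a difference between paralogs.

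**Figure D4:**
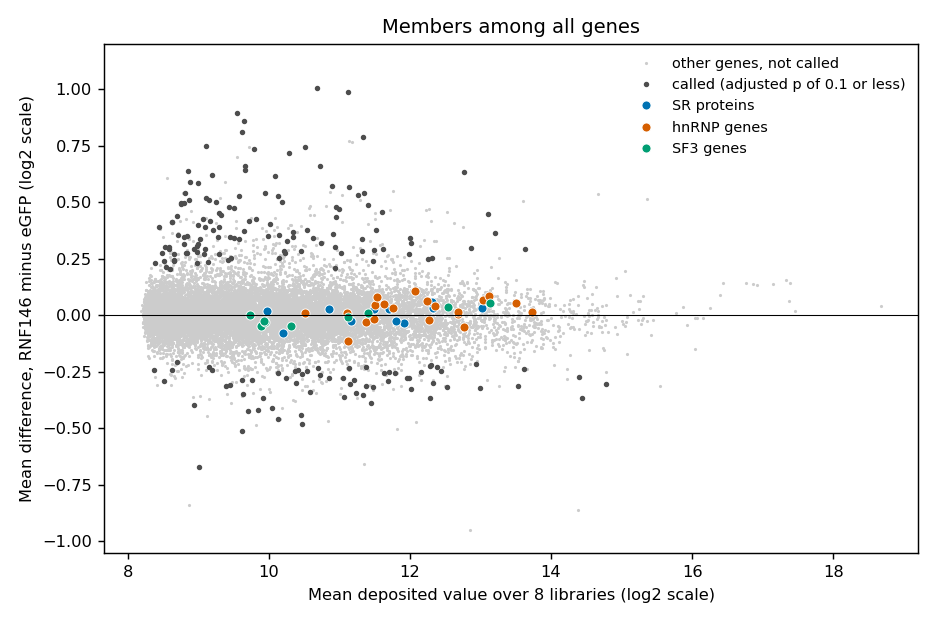
Mean difference of the 4 pairs (vertical axis, log2 scale) against the mean deposited value over the 8 libraries (horizontal axis, log2 scale). Light points are genes that were not called, dark points the called genes, and coloured points the 40 members, which lie between -0.11 and 0.11. *Rnf146*, at 2.64, lies above the plotted range.

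Because the table holds 1 value per gene, it joins productive and unproductive isoforms. Transcript types were read from GENCODE vM39, while the values were quantified against vM30, so the isoforms joined can differ from those counted. In the GENCODE vM39 annotation all 11 SR genes have at least 1 transcript marked for nonsense-mediated decay, as do 14 of the 20 hnRNP and 7 of the 9 SF3 genes. That is 80.0% of the members, against 67.5% of the 14590 table genes matched by symbol. A transcript with a retained intron is listed for 72.5% of the members and 53.5% of those genes. A shift between isoforms of one gene could therefore leave its value unchanged and was not measured here. Some members also have processed copies in the genome. With at least 95% identity over 500 aligned bases or more, 11 of the 40 had a processed pseudogene, *Hnrnpa3* 18 and *Hnrnpa1* 6, so the values of these genes could share reads with the copies. Another protein-coding gene, on either strand, overlaps 19 of the 40 members, some of which also have such a copy. The kit was stranded. Among these 19, an overlapping gene on the same strand, coding or not, is listed only for *Hnrnpk*, *Hnrnpm*, *Hnrnpul2*, *Sf3b3* and *Srsf11*.

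Around the members, the wider splicing machinery was read from lists of genes. Of 12 hnRNP proteins with other symbols 0 were called, and the median difference was 0.016. *Tardbp*, which encodes TDP-43, was the highest at 0.12 ± 0.10 (SD, n = 4 pairs, limma, adjusted p = 0.405), and *Pcbp3* was the lowest at -0.10 ± 0.17. The 29 SR-related proteins had a median of 0.00086 and 0 calls, from -0.11 for *Srrm4*, the neuronal activator of microexons, to 0.096 for *Rsrc2*. Among 16 kinases and importins of SR proteins, 0 were called and the median was -0.011, between -0.077 for *Cdk13* and 0.098 for *Prpf4b*. The 36 core snRNP and tri-snRNP proteins had a median of -0.018 and 0 calls. Their highest was *Snrpn* at 0.064, and their lowest was *Sart1*, at -0.25, -0.23, -0.14 and -0.10 in the 4 pairs (limma, adjusted p = 0.170 with the block and 0.00509 without it). The 14 nonsense-mediated decay factors had the lowest median of these lists, -0.048, with 0 calls, and its highest gene was *Smg1* at 0.039.

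The neuronal and tissue splicing regulators held the 1 call among the lists of splicing genes. *Nova1*, which encodes a neuronal RNA-binding protein that recognizes YCAY repeats, was at 10.72, 10.70, 10.75 and 10.77 in eGFP and at 11.18, 11.20, 11.16 and 11.13 in Rnf146 libraries. It rose in every pair, by 0.47, 0.50, 0.41 and 0.37, which averages 0.44 ± 0.061 (SD over the 4 pairs; limma, adjusted p = 0.0102). The other 29 genes of this list in the table were not called, its median was 0.025, and its lowest gene was *Celf5* at -0.11. Of its 30 genes, 21 had a mean above 0. An unadjusted p under 0.05 (limma with the block) was found for 7, of which 6 were higher and 1 lower. That is 23.3%, beside 12.4% of all genes. *Mbnl3*, *Rbm47*, *Esrp1* and *Esrp2* of this list are not in the table.

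**Figure D5:**
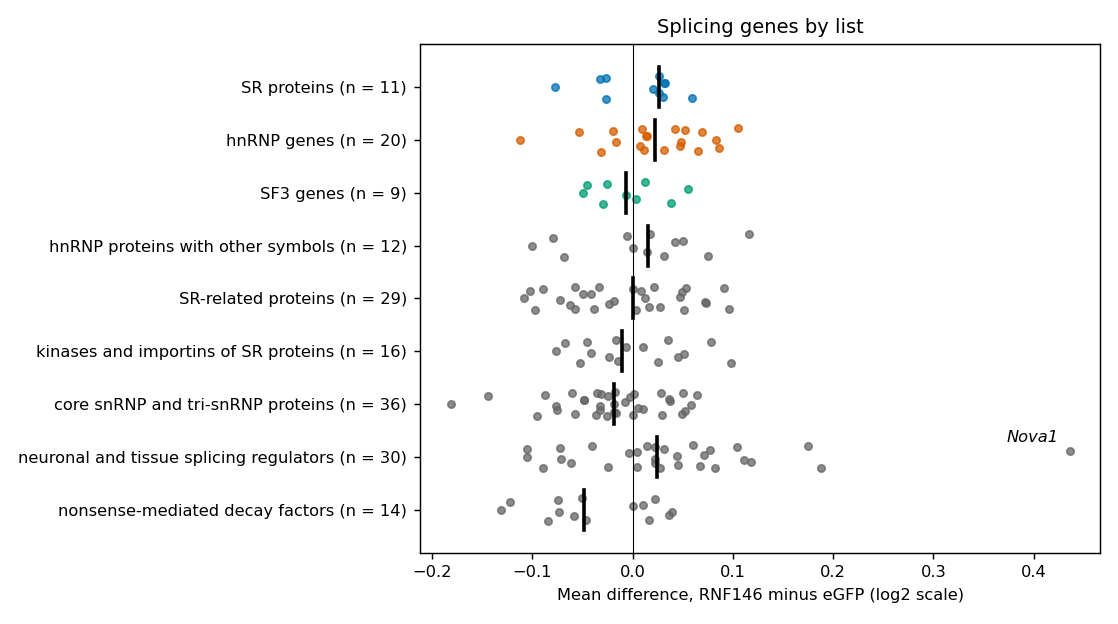
Mean difference of the 4 pairs (horizontal axis, log2 scale) of the genes in the 3 member families (coloured) and in 6 lists of other splicing genes (grey), 1 dot a gene, with the median of each list as a black bar. The medians lie between -0.048 and 0.026, and *Nova1*, at 0.44, stands apart as the 1 called gene.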

How the data were processed

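The 8 libraries were made from total RNA of the PFC with a stranded mRNA kit. The authors trimmed the reads with Cutadapt, quantified transcripts with Salmon 1.9.0 against GENCODE vM30 (GRCm39) and deposited a table of 1 value per gene symbol. DESeq2 is named in the submitters' processing notes. The deposited values are log2 values between 7.86 and 18.8, although the table is named normalized counts, and the step that made them is not given in the sources used here. They had been centred within same-numbered pairs, since for each gene the sum of the 2 libraries is equal over the 4 pairs (largest spread 1.4e-13). The pairing thus comes from the replicate numbers in the labels and from this centring, which fixes the correlation of paired deviations at -1. Neither counts nor depths are part of the table, so the depth of the libraries is unknown. The labels do not say what else a pair shared or whether each library is 1 mouse, and p-values measure the spread between these pairs only.

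Differences were fitted over all 15039 genes with limma 3.58.1 in R 4.3.3, with the replicate number as a block, eBayes with trend and Benjamini-Hochberg adjustment. The threshold for a call was 0.1 on the adjusted p. The fit was tested on simulated pairs. Alternatives were no replicate block, median centring, quantile normalization, a filter on low values, array weights, eBayes without trend or with a robust prior, a threshold of 0.05 and each pair left out in turn. The members and gene lists were chosen with earlier results of these data known. Named with all 4 differences were members called, the 3 highest and 3 lowest means of each family, and members with the same sign in all 4 pairs. In the other lists, called genes and the highest and lowest means were named, except 1 gene that is not reported here, and further members are named for their role. Gene positions are those of GENCODE vM39 on GRCm39. Promoters are RefSeq windows on GRCm38.p6, used for sequence only. Pseudogene copies were searched with minimap2 2.31. Python 3.11.15 with pandas 2.3.3 was used for the other steps.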

Additional observations from a re-analysis of the deposited data

Results flagged for a closer look

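In 5 of the 40 splicing genes (12.5%), 1 pair stood apart from the other 3 by Dixon's criterion for 4 values, which chance meets in about 1 of 20 groups and which 5.39% of all genes met. Pair 3 was the odd one for *Hnrnpf*, at 0.16 where the other 3 lay from -0.21 to -0.20, and for *Srsf6*, at 0.11 where they lay from -0.090 to -0.075. Pair 1 was the odd one for *Hnrnpc*, at -0.14 where the rest lay from 0.12 to 0.16, and for *Hnrnpu*, at 0.11 where the rest lay from -0.032 to -0.0097. For *Sf3a1* it was pair 4, at 0.070 where the rest lay from -0.035 to -0.031. Values of a pair cannot be traced to 1 of its 2 libraries, because the deposited values were centred within pairs.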

How the results depend on the processing

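Of the splicing genes, 0 were called under each alternative except the fit with no replicate block, which called 6 of 40. That fit called 3226 genes in all in place of 188, while 355 were called with array weights and 80 with the threshold at 0.05. With each pair left out in turn, 0 to 0 members and 14 to 421 genes were called, 421 without pair 1, 42 without pair 2, 169 without pair 3 and 14 without pair 4. The median of the SR genes lay between -0.018 and 0.024 with a pair left out, and was below 0 without pair 1. That of the SF3 genes, near 0, turned above 0 without pair 1 or 3 and with array weights. Among the 20 named members, the means of *Hnrnph1* (-0.094 to 0.00070), *Sf3b3* (-0.019 to 0.031), *Sf3b6* (-0.071 to 0.022) and *Srsf10* (-0.082 to 0.029) changed sign with a pair left out. None of the 20 named members changed sign under the other alternatives. Of all 40 members, 8 changed sign without pair 1, 7 without pair 2, 2 without pair 3 and 4 without pair 4. With quantile normalization 1 of the 40 changed sign, and with array weights 2 did. The cause of these shifts was not tested. The replicate block is part of the main fit because each gene was read as 4 pair differences. The centring also leaves 3 residual degrees of freedom, not the 6 that the fit without the block counts. The scale and the lack of depths limit the comparison of weakly expressed genes, and 4 pairs leave each member the width of its interval.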
